A study of Mus musculus with 12 samples.

Results

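RNA of the neurite compartment was compared with RNA of the soma compartment in cultures of dorsal root ganglion (DRG) neurons from WT mice. The members are 6 of the 12 libraries of the series, 3 of WT neurites and 3 of WT soma, chosen by their labels alone. Each culture held the ganglia of 1 adult mouse of the C57B6 strain. It was kept for 3 days on Millicell inserts, whose 1 µm pores let neurites pass and hold cell bodies back. WT is GAR+/+, where GAR is a domain of nucleolin that is rich in glycine and arginine. The 6 other libraries came from GAR+/- cultures (het), prepared in the same way, with 3 neurite and 3 soma libraries. They are not among the libraries compared in WT, but the model behind the WT p-values was fitted to all 12 libraries. Values of het are given beside those of WT. The labels mention no sorting, so a compartment can hold RNA of any cell in the culture.

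DRG neurons sense touch, temperature and pain. Their axons carry mRNAs that are bound by RNA-binding proteins, moved along microtubules by motor proteins and translated locally during growth and after injury. Satellite glia and Schwann cells surround these neurons and divide in culture, and their processes can also enter pores. RNAs that gather at the protrusions of migrating non-neuronal cells form another known group, which includes Rab13, Net1, Kif1c and Ddr2.

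Levels below are CPM, the counts of a gene over its named transcripts listed for both compartments, scaled to a common library size. WT neurite libraries held 14965973, 15815820 and 25915003 counts, and WT soma libraries between 22232250 and 26335219. At these depths 3 counts correspond to between 0.115 and 0.21 CPM, the level that an observed 0 allows, which covers counting error only. Tests are edgeR's quasi-likelihood test over 15990 genes with Benjamini-Hochberg adjustment, and a gene passed at an adjusted p under 0.05. Fold changes are neurites over soma, with the standard error (SE) of the log2 value. Libraries of the same number deviated together in WT, and where it matters the text also gives how many genes passed when the fit held a term for the replicate number (the block).

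The defining markers of neurons were present in both compartments, and so was RNA of marker genes of other cells. The summed level of 29 tested pan-neuronal genes ran from 26583 to 31608 CPM in soma and from 21847 to 30256 CPM in neurites. Satellite glia genes summed to 3654 to 4469 CPM in soma and 4568 to 5084 CPM in neurites, so the neurite libraries were above all soma libraries. Schwann cell and myelin genes overlapped between the compartments, at 4137 to 4428 CPM in soma and 4072 to 4865 CPM in neurites. Fibroblast genes ran from 2088 to 4224 CPM in soma and from 1830 to 5944 CPM in neurites, and replicate 2 was the lowest in each compartment. Of 18 macrophage and leukocyte genes, Aif1, Cd74, Cx3cr1, Itgam and Ptprc were not in both tables, and Csf1r was not among those tested. The 12 tested genes summed to 162 to 259 CPM in soma and 102 to 209 CPM in neurites. The part of these other cells in the results below was not tested, and in bulk libraries fewer cells of a type and less RNA per cell cannot be told apart.

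**Figure D1:**
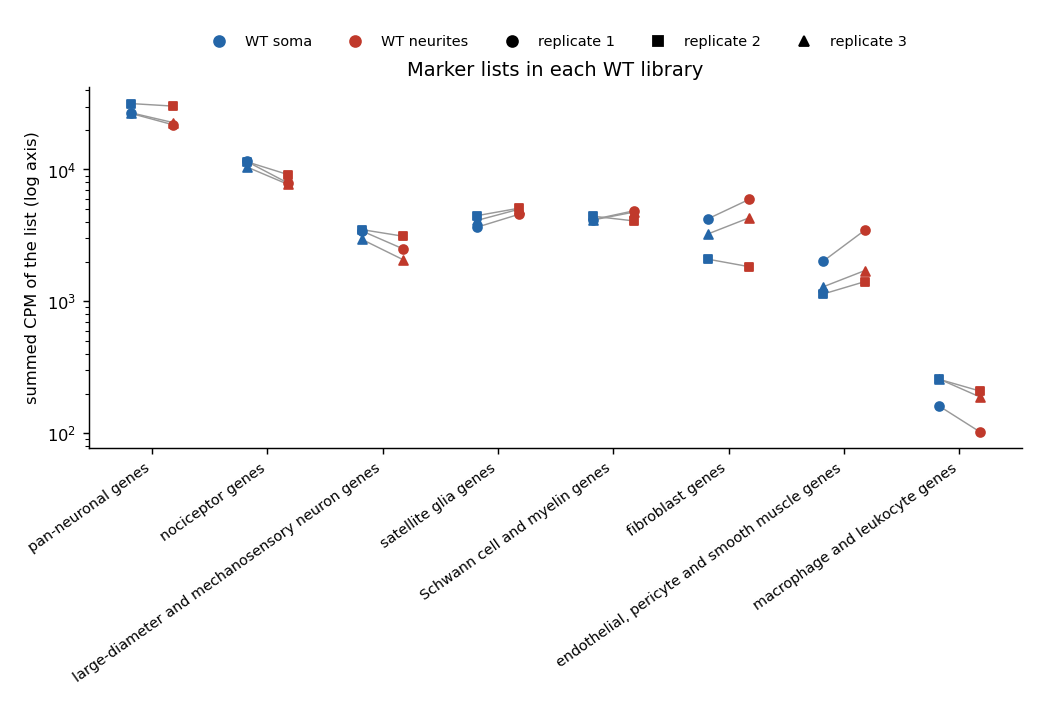
Summed CPM (log axis) of 8 marker lists in each WT library, with soma in blue, neurites in red and grey lines joining libraries of the same number. Satellite glia sums lie higher in the neurite library of each pair, and the pan-neuronal sums lie lower by a small margin.

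Neurites and soma differed in the levels of 385 genes that rose in neurites (2.41% of those tested) and 110 that fell (0.688%), 3.1% in both directions together. Under the block, 936 rose (5.85%) and 553 fell (3.46%), and these include all 385 and all 110. When het libraries were kept out of the model, 38 rose and 2 fell. All 3 neurite libraries were above all 3 soma libraries for 1981 genes (12.4%) and below them for 1592 (9.96%). Differences were small: 51 of the genes that rose and 4 of those that fell changed by over 2-fold. The median log2 fold change was 0.61 over the genes that rose and -0.60 over those that fell, against 0.01 over all genes. Genes that rose were more abundant, with a median of 81.2 CPM over the WT libraries, while the median of those that fell was 31.4 CPM. For 68 of the genes that rose and 4 of those that fell, the call held with any 1 of the 6 WT libraries left out.

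The WT neurite library of replicate 2 stood apart among the genes with the largest folds. It was the highest of the 3 neurite libraries for 33 of the 51 genes over 2-fold (64.7%), against 36.1% of all genes tested. Without it, 632 genes rose and 449 fell. Without soma replicate 2, 84 rose and 9 fell, and without soma replicate 1, 98 rose and 7 fell. The counts were 193 and 57 without soma replicate 3, 153 and 19 without neurite replicate 1, and 280 and 56 without neurite replicate 3.

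Of the 51 genes that rose over 2-fold, 4 with known parts in the cytoskeleton or in adhesion are given first. Kif1c, a kinesin that walks toward microtubule plus ends (chromosome 11, 70700548 to 70730424, plus strand, GRCm38), stood at 10.6, 6.93 and 9.48 CPM in soma replicates 1 to 3 and at 18.1, 30.5 and 18.7 CPM in neurites. All neurite values were above all soma values, and replicate 2 was the highest of the neurites. Kif1c rose 2.49-fold (log2 fold change 1.31 ± 0.21 SE, adjusted p = 0.00541). Mtss1l, a protein that binds actin and bends membranes, stood at 24.8, 19.4 and 23.2 CPM in soma and 48.4, 79.1 and 47.4 CPM in neurites. It rose 2.59-fold (1.37 ± 0.20, adjusted p = 0.00488). Kank2, which links integrin adhesions to cortical complexes, had values close to each other within each compartment, at 133.4, 122.99 and 145.3 CPM in soma and 275, 291 and 266 CPM in neurites (1.05 ± 0.12, adjusted p = 0.00253). Ddr2, a receptor for fibrillar collagen, stood at 74.6 to 90.7 CPM in soma and 167 to 233 CPM in neurites (1.22 ± 0.16, adjusted p = 0.00382). These 4 genes passed with any 1 WT library left out, and all 4 also passed in the het cultures, where the log2 fold changes were 1.09, 1.04, 0.77 and 0.83.

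Kif1c, Kank2 and Ddr2 belong to the RNAs described at cell protrusions. Of 14 tested members of that list, 10 rose and none fell (median log2 fold change 1.23), against 2.41% of all genes that rose. Some of these 14 were put on the list because they were already known to be high in these neurites, so the count is not independent evidence. The other members that rose were Sh3pxd2a, Rab13, Tns3, Trak2, Cdc42bpg, Palld and Cyb5r3. Net1, a guanine nucleotide exchange factor, was at 4.50 CPM in soma and 5.57 CPM in neurites (0.30, adjusted p = 0.496). Ajuba, Dynll2 and Plekha1 did not pass either, with log2 fold changes of 0.53, -0.02 and -0.09. In het, 8 of the 14 rose (0.544% of all genes rose there). Without soma replicate 2, 7 of the 14 rose in WT, where 84 of 16176 genes rose over all. The calls of Trak2 (adjusted p up to 0.094) and Cdc42bpg (up to 0.064) were lost without soma replicate 1 or 2, that of Trak2 also without soma replicate 3, and that of Palld (up to 0.10) without soma replicate 2 or 3.

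**Figure D2:**
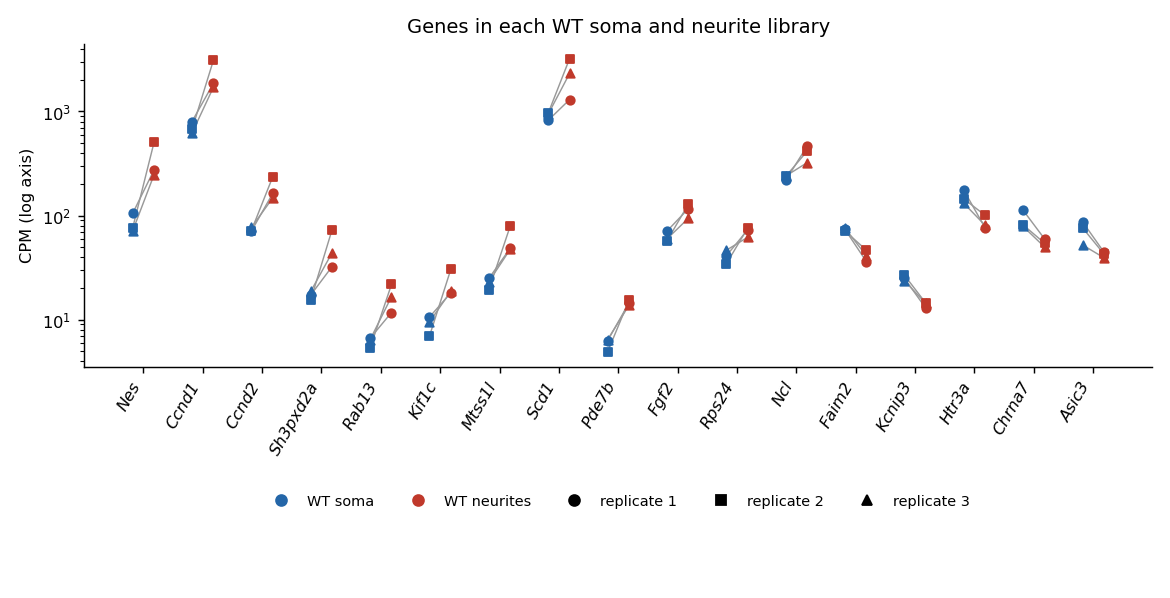
CPM (log axis) of 17 genes in each WT library, with soma in blue, neurites in red and grey lines joining libraries of the same number. In all 17 genes shown the 3 neurite libraries lie on one side of the 3 soma libraries, and replicate 2 is the highest neurite library for Nes, Ccnd1, Sh3pxd2a and Scd1.

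Other cytoskeletal groups changed in few members. Among 48 motors and adaptors of axonal transport, Kif1c, Kif4, Trak2 and Kif13a rose, and the list median was -0.02. Over all genes 2.41% rose, the share to set beside this and the following counts. Kif4, a kinesin that acts on mitotic chromosomes, stood at 51.4, 40.0 and 59.2 CPM in soma and 112, 104 and 121 CPM in neurites (1.16 ± 0.21, adjusted p = 0.0143). Of 13 intermediate filament and lamin genes, Nes, Vim, Lmna and Des rose (median 0.05). Vim, the filament of mesenchymal and glial cells that also occurs in injured axons, rose 1.67-fold, from 1262 to 1561 CPM in soma to 2145 to 2713 CPM in neurites. Of 46 actin genes, Rock1, Tpm4 and Rock2 rose and Pfn2, the profilin of neurons, fell. Rock1, a kinase that drives actomyosin contraction, stood at 160, 153 and 178 CPM in soma and 308, 265 and 258 CPM in neurites (0.76 ± 0.12, adjusted p = 0.00523). Actb, whose mRNA is carried into axons, stood at 0.38 on the log2 scale (adjusted p = 0.172). None of 16 tubulin genes passed in edgeR or DESeq2 (4 had an unadjusted p under 0.05, and 1 rose and 1 fell with the block), and their median was 0.03. With the block 5.85% of all genes rose and 3.46% fell. With any 1 WT library left out, Rock1 and Nes passed, whereas the calls of Kif4 (adjusted p up to 0.067) and Lmna (up to 0.086) were lost without soma replicate 1 or 2, that of Vim (up to 0.062) without soma replicate 1, and those of Kif13a (up to 0.096), Tpm4 (up to 0.15), Rock2 (up to 0.20) and Des (up to 0.18) without any 1 of at least 3 libraries. Pfn2 (up to 0.11) was lost without soma replicate 1 or 2 or neurite replicate 3.

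Among 22 D cyclins, G1 kinases and inhibitors, 3 rose and none fell (median 0.24), against 2.41% of all genes that rose. D cyclins bind CDK4 and CDK6 and carry cells from G1 into S phase. Ccnd2, cyclin D2 (chromosome 6, 127125162 to 127151060, minus strand), stood at 70.7, 71.5 and 76.8 CPM in soma and 163, 236 and 147 CPM in neurites. The groups did not overlap, and Ccnd2 rose 2.49-fold (1.32 ± 0.16, adjusted p = 0.00354), next to the 3.18-fold rise of Ccnd1. Both also passed in het (log2 fold changes 1.24 and 1.32) and with any 1 WT library left out. Cdk6, their kinase partner, rose 1.63-fold (adjusted p = 0.0301), a call lost without soma replicate 1, 2 or 3 or neurite replicate 1 or 3 (adjusted p up to 0.16). Cdk4 was at 18.7 CPM in soma and 17.8 CPM in neurites (-0.07, adjusted p = 0.849).

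Genes of later phases of the cell cycle leaned the same way without passing in most cases. All 33 DNA replication genes had a log2 fold change above 0 (median 0.56), and 1 passed, while 17 passed with the replicate block. That gene was Pola1, the catalytic subunit of DNA polymerase alpha, at 106, 86.9 and 108 CPM in soma and 191, 172 and 196 CPM in neurites (0.89 ± 0.15, adjusted p = 0.00676). Of 31 mitosis genes, 30 were above 0 (median 0.50) and Smc4 of condensin passed, with 12 passing with the block. Over all genes 2.41% rose and 0.688% fell, and 5.85% rose with the block, the shares to set beside the counts of this paragraph. The proliferation marker Mki67 stood at 283 CPM in soma and 438 CPM in neurites (adjusted p = 0.273). Satellite glia genes had a similar median of 0.54 in neurites, with 18 of 20 members above 0, Sox2 and Sox10 called higher and Pla2g7, a secreted phospholipase, called lower (-0.52, adjusted p = 0.0245). Their part in the cell cycle values was not tested. The calls of Smc4, Sox2, Sox10 and Pla2g7 were lost without soma replicate 1 or 2 or neurite replicate 1 (adjusted p up to 0.13, 0.089, 0.11 and 0.11), that of Pla2g7 also without neurite replicate 3.

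Growth factors and their receptors divided. Fgf2, basic fibroblast growth factor (chromosome 3, 37348346 to 37405377, plus strand), stood at 70.8, 56.9 and 59.6 CPM in soma and 116, 128 and 93.9 CPM in neurites and rose 1.81-fold (0.85 ± 0.12, adjusted p = 0.00463). Gdnf, a trophic factor for motor and sensory neurons, rose 1.45-fold (adjusted p = 0.048). Ngfr, the low-affinity neurotrophin receptor, fell from 774 to 966 CPM in soma to 545 to 673 CPM in neurites (-0.53 ± 0.14, adjusted p = 0.0486), and Hgf, hepatocyte growth factor, fell 1.64-fold (adjusted p = 0.026). Of the 41 members tested, 2 rose and 3 fell, against 2.41% and 0.688% of all genes. In het, Fgf2 rose and Ngfr and Hgf fell with adjusted p-values of 0.0246, 0.0484 and 0.0384. Fgf2 passed with any 1 WT library left out, while Gdnf (adjusted p up to 0.19), Ngfr (up to 0.18) and Hgf (up to 0.10) lost their calls without soma replicate 1 or 2 or neurite replicate 1. The calls of Gdnf and Ngfr were also lost without soma replicate 3, and those of Ngfr and Hgf without neurite replicate 3.

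The most abundant genes that rose were Akap12, Ahnak, Scd1, Utrn, Vim and Tpm4. Akap12, a scaffold that holds protein kinases A and C near the membrane, stood at 3751, 3905 and 3623 CPM in soma. It stood at 6584, 11500 and 6598 CPM in neurites, so replicate 2 exceeded the others, and rose 2.19-fold (adjusted p = 0.00603). Ahnak, a very large scaffold protein, rose from between 5693 and 7151 CPM to between 9506 and 13510 CPM (0.85 ± 0.16, adjusted p = 0.0131). Utrn, which codes for utrophin, the relative of dystrophin that links actin to the membrane, had neurite values of 1913, 2112 and 1996 CPM and soma values of 1140, 1098 and 1040 CPM (0.88 ± 0.12, adjusted p = 0.00452). Scd1, the desaturase that makes oleate, spread widely in neurites, at 1300, 3217 and 2317 CPM, against 822, 962 and 943 CPM in soma (1.33 ± 0.25, adjusted p = 0.0192). Fads1 and Fads2, desaturases of long unsaturated fatty acids, rose 1.44-fold and 1.57-fold. These 3 desaturases were the members called higher of 32 cholesterol and fatty acid synthesis genes, whose median was 0.10. Over all genes 2.41% were called higher. Scd1 had an adjusted p of 0.211 in het, and none of the 3 remained called without soma replicate 1, 2 or 3 (adjusted p up to 0.086, 0.14 and 0.13). Akap12 and Utrn passed with any 1 WT library left out, and Ahnak did not without soma replicate 1 (adjusted p 0.079).

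Of the components of translation, 11 of 84 cytosolic ribosomal protein mRNAs rose, 6 of 50 of the large and 5 of 34 of the small subunit, against 2.41% of all genes. The medians were 0.10 and 0.16. Rps24 of the small subunit (chromosome 14, 24490681 to 24495845, plus strand) stood at 41.0, 34.2 and 46.3 CPM in soma and 72.8, 76.1 and 61.8 CPM in neurites (0.79 ± 0.12, adjusted p = 0.0051). In het, 6 large-subunit and 7 small-subunit genes rose, against 0.544% of all genes. Of 50 initiation factors, 4 rose (median 0.09), and none of 78 mitochondrial ribosomal protein genes passed in edgeR (median 0.02, none with the block, 5 at an unadjusted p under 0.05 and 2 in DESeq2). Eif5b, which joins the ribosomal subunits, rose 1.55-fold, Eif3a, the largest subunit of eIF3, rose 1.67-fold, and Pabpc1, the cytoplasmic poly(A)-binding protein, rose 1.57-fold (adjusted p = 0.00468, 0.00528 and 0.00523). Rps24, Eif5b, Eif3a and Pabpc1 passed with any 1 WT library left out. Counts of the lists changed with the library left out, as did those over all genes. Without soma replicate 2, none of the large-subunit and 1 of the small-subunit genes passed. Without neurite replicate 1 the counts were 1 and 2. Without soma replicate 1 they were 1 and 3, without soma replicate 3 they were 1 and 1, and without neurite replicate 3 they were 3 and 3. They were 7 and 6 without neurite replicate 2. Over all genes, 385 rose with all libraries, and 84, 153, 98, 193, 280 and 632 rose in these fits, in the order given. Ribosomal protein genes have many processed pseudogenes that can share their reads, so these levels are uncertain.

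Nucleolin is the protein whose GAR domain gives the genotypes their names. Its gene, Ncl, stood at 218, 237 and 239 CPM in WT soma and 463, 415 and 322 CPM in WT neurites, and passed with any 1 WT library left out (adjusted p up to 0.040). The other nucleolar and ribosome biogenesis genes had a median of 0.26. Of 47, 4 were called higher: Bms1, Ddx21, Mybbp1a and Utp14a, at 1.39-fold to 1.51-fold. With the block 8 were called higher. Over all genes 2.41% were called higher, and 5.85% with the block. In fits without the block, no gene of the list was called higher when neurite replicate 1, soma replicate 2 or soma replicate 3 was left out. The count was 1 without soma replicate 1, 6 without neurite replicate 2 and 7 without neurite replicate 3. Over all genes, 153, 84, 193, 98, 632 and 280 were called higher in these fits, in the order given. Kpnb1, importin beta1, ran from 949 to 986 CPM in soma and from 1073 to 1375 CPM in neurites (0.29 ± 0.11, adjusted p = 0.152). Mtor ran from 276 to 315 CPM in soma and from 232 to 281 CPM in neurites (-0.18 ± 0.10, adjusted p = 0.369). Neither gene passed after adjustment over all genes, although the Kpnb1 values of the compartments did not overlap (unadjusted p = 0.0165 in edgeR).

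Among the RNA-binding proteins of axonal mRNA transport, Qk, Khsrp and Sfpq rose, 3 of 42 tested, against 2.41% of all genes. Qk, the quaking protein of glia that binds mRNA and shapes splicing, stood at 620, 614 and 662 CPM in soma and 1052, 1034 and 890 CPM in neurites (0.65 ± 0.12, adjusted p = 0.0103). Khsrp, which destabilises AU-rich mRNAs, and Sfpq, which packages mRNAs for axons, rose 1.30-fold and 1.33-fold. The call of Qk was lost without soma replicate 1 or 2 (adjusted p up to 0.064), and those of Khsrp and Sfpq were lost without each of 5 of the 6 libraries (up to 0.20 and 0.22), the exception being neurite replicate 2. Of 32 mRNAs described in axons, Vim and Pard3 rose and Atp5g1 fell (median 0.10), against 2.41% and 0.688% of all genes. The call of Pard3 was lost without any 1 of the 6 libraries (adjusted p up to 0.20), and that of Atp5g1 without each of them but neurite replicate 3 (up to 0.23). Gap43, a growth-associated protein whose mRNA is a known axonal cargo, differed by -0.34 on the log2 scale (adjusted p = 0.308), and Sprr1a, induced by axon injury, by -0.10 (adjusted p = 0.906).

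The genes that fell included receptors, channels and adhesion molecules of the neuronal membrane. Of 51 neurotransmitter receptors, 4 fell, none rose and 43 had a log2 fold change below 0 (median -0.46), against 0.688% of all genes that fell. With the block 19 fell, against 3.46%. Htr3a, the serotonin-gated channel of sensory neurons (chromosome 9, 48899214 to 48911099, minus strand), stood at 175, 145 and 131 CPM in soma and 75.9, 100 and 80.4 CPM in neurites. It fell 1.76-fold (-0.81 ± 0.15, adjusted p = 0.0137). Chrna7, a nicotinic acetylcholine receptor subunit, stood at 112, 81.2 and 78.5 CPM in soma and 59.7, 54.3 and 49.8 CPM in neurites (-0.73 ± 0.15, adjusted p = 0.0196), and fell in het too (-0.80, adjusted p = 0.0343). Htr1f, a serotonin receptor that couples to G proteins and is a target of migraine drugs, fell 1.90-fold, and Gabbr1 of the GABA-B receptor fell 1.61-fold. All 4 calls were lost without soma replicate 1. That of Htr3a was also lost without neurite replicate 1, and that of Chrna7 without neurite replicate 3 (adjusted p up to 0.071 and 0.086). That of Htr1f was also lost without soma replicate 2 or neurite replicate 1 (up to 0.10). With 1 WT library left out, Gabbr1 kept its call only without neurite replicate 2 (up to 0.20 otherwise). Of the list, 9 members fell without neurite replicate 2, a fit in which 449 of 16317 genes fell.

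Most ion channel genes also had log2 fold changes below 0, and few passed. Of 75 potassium channel genes, 3 fell and none rose (median -0.41), against 0.688% of all genes that fell. With the block 25 fell and 1 rose, against 3.46% and 5.85% of all genes. Kcnip3, a calcium sensor that binds A-type potassium channels (chromosome 2, 127456498 to 127521370, minus strand), stood at 24.9, 26.7 and 23.7 CPM in soma and 12.9, 14.4 and 14.3 CPM in neurites, with a small spread in each compartment (-0.86 ± 0.11, adjusted p = 0.00393). Kcnb2, a delayed rectifier of neurons, fell 1.43-fold. Asic3, an acid-gated channel of pain-sensing neurons, fell 1.70-fold, with soma values of 87.1, 76.2 and 52.2 CPM and neurite values of 44.6, 42.8 and 39.3 CPM (adjusted p = 0.0429). Of 29 sodium and calcium channel genes, 28 were below 0 (median -0.42), 1 fell and 1 rose. Scn1a, a sodium channel of large-diameter neurons, fell 1.87-fold from 6.66 to 3.57 CPM on average. Cacng4, which belongs to the family of calcium channel gamma subunits, rose from 10.6 to 18.7 CPM on average (0.82 ± 0.21, adjusted p = 0.0469). Scn10a, the sodium channel of nociceptors, stood at 1177 CPM in soma and 958 CPM in neurites (-0.30, adjusted p = 0.264). Kcnip3 passed with any 1 WT library left out. The calls of Kcnb2, Asic3, Scn1a and Cacng4 (adjusted p up to 0.13, 0.16, 0.12 and 0.21) were lost without each of 5 of the 6 libraries, the exception being neurite replicate 2 for Kcnb2 and Scn1a and soma replicate 3 for Asic3 and Cacng4. Without neurite replicate 2 there were 15 potassium channel genes that fell, against 449 of 16317 genes over all.

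Synaptic and secretory genes and neuronal adhesion genes followed. Of 50 genes of synaptic and dense-core vesicles, 4 fell and none rose (median -0.31), and 15 fell with the block. Over all genes 0.688% fell and 2.41% rose, and 3.46% fell with the block, the shares to set beside the counts of this paragraph from fits with all libraries. Syt2, a calcium sensor of fast transmitter release, stood at 311, 295 and 273 CPM in soma and 172, 213 and 139 CPM in neurites (-0.74 ± 0.17, adjusted p = 0.0359). Calca, the gene of the neuropeptide CGRP, stood at 1259, 994 and 1040 CPM in soma and 732, 623 and 779 CPM in neurites (-0.63 ± 0.13, adjusted p = 0.0234) and was the member called lower of 16 neuropeptide genes, all of which had a log2 fold change below 0 and 9 of which passed with the block. Of 42 neuronal adhesion genes, 6 fell (Adam11, Lgi3, Cntn1, Lsamp, Igsf21 and Nrxn3) and Cntnap4 rose. Pan-neuronal genes had a median of -0.32, with Rbfox3, Resp18, Chga and Uchl1 called lower of 29, and 9 called lower with the block. Faim2, an inhibitor of Fas-driven cell death in neurons, stood at 73.4, 70.9 and 75.4 CPM in soma and 36.0, 46.4 and 41.0 CPM in neurites and kept its call with any 1 WT library left out. Without soma replicate 1 or 2 or neurite replicate 1, no vesicle, adhesion or pan-neuronal gene named here passed, Calca included (adjusted p up to 0.10). Without neurite replicate 3, 0 vesicle, 1 adhesion and 1 pan-neuronal gene fell, and without soma replicate 3 the counts were 1, 3 and 2. Without neurite replicate 2 there were 10 vesicle, 9 adhesion and 11 pan-neuronal genes that fell. Over all genes, 56 fell without neurite replicate 3, 57 without soma replicate 3 and 449 of 16317 without neurite replicate 2.

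**Figure D3:**
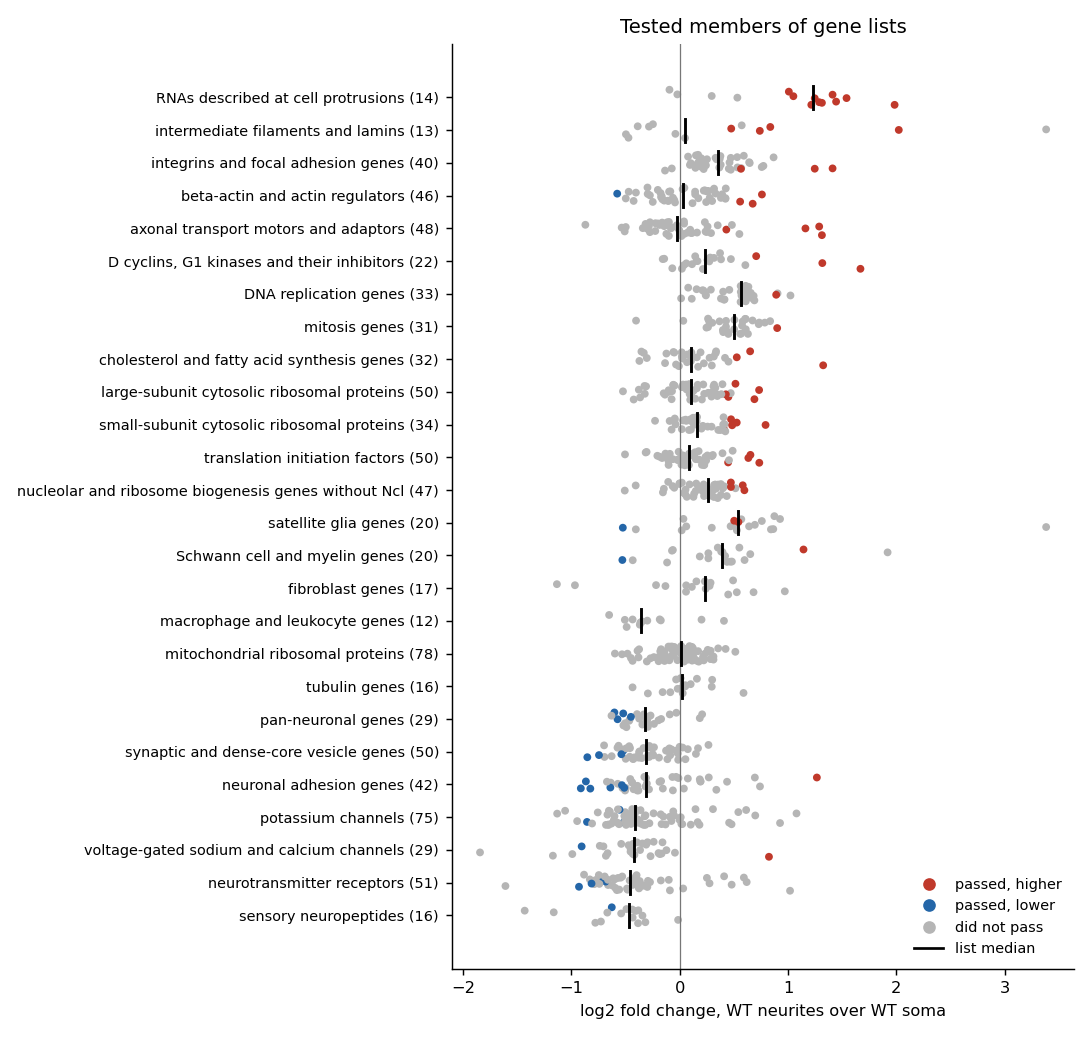
Log2 fold change of WT neurites over WT soma for every tested member of 26 gene lists (number of members in brackets), coloured by whether the gene passed, with a black line at the list's median. Members of the neuronal lists at the bottom lie mostly below 0 and those of the cell cycle lists above 0, while few members of either passed.

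In several groups no gene passed. None of 33 collagen genes, 17 fibroblast genes, 16 endothelial and mural genes, 41 Wnt and Notch genes or 39 mTOR pathway genes passed in edgeR without the block. With the block 2, 1, 2, 4 and 1 of them rose, and 1 collagen gene and 2 Wnt and Notch genes fell. Their medians were 0.33, 0.23, 0.29, 0.23 and -0.02. At an unadjusted p under 0.05 there were 4, 2, 1, 7 and 4 genes, and DESeq2 called 2, 0, 0, 3 and 1. Over all genes 2.41% rose and 0.688% fell without the block, and 5.85% rose and 3.46% fell with it. DESeq2 called 1146 of 15988 genes. These are the shares to set beside the counts of this paragraph. For the unadjusted counts no share over all genes is given. None of 12 macrophage genes passed in DESeq2 or in edgeR without the block (median -0.35, with 1 at an unadjusted p under 0.05), 2 fell with the block, and Cd68 ran from 5.15 to 5.70 CPM in soma and from 3.08 to 3.70 CPM in neurites. None of 48 axon guidance genes passed in edgeR (median -0.08, with 5 lower with the block, 10 at an unadjusted p under 0.05 and 3 called by DESeq2), among them Unc5b, a netrin receptor, at 113 to 120 CPM in soma and 82.6 to 92.2 CPM in neurites (adjusted p = 0.0792). Nuclear oxidative phosphorylation genes had a median of 0.00 with Atp5g1, whose call was lost without each of 5 libraries as given above, the 1 of 88 that passed.

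Of 10 nucleus-retained long RNAs, 9 had a log2 fold change below 0 (median -0.41), 1 fell and none rose, and 2 fell with the block. Over all genes 0.688% fell, and 3.46% with the block. Malat1, a nuclear long RNA, stood at 8039 CPM in soma and 7288 CPM in neurites (-0.14, adjusted p = 0.793), and Rian, a long RNA of the imprinted Dlk1 locus, was the one that fell (-0.73 ± 0.14, adjusted p = 0.0136, lost without soma replicate 1 or 2 or neurite replicate 1 with an adjusted p up to 0.077). The deposited rows are single transcripts, so classes could be compared. Of 29102 transcripts, 364 rose (1.25%) and 97 fell (0.333%). Protein-coding transcripts gave 285 and 85 of these among 16352. Retained-intron transcripts, which are usually held in the nucleus, rose in 22 and fell in 6 of 6603, with a median log2 fold change of 0.05. Set against the coding transcript of the same gene, 47.6% of 5432 of them were lower. The median of this difference was -0.19, -0.01 and 0.19 in the pairs of replicates 1, 2 and 3, so its sign differed between pairs. Small nucleolar RNAs had a median of -0.31 with none of 99 called in edgeR (4 lower at an unadjusted p under 0.05), and long intergenic RNAs one of -0.15. Processed pseudogenes rose in 28 of 836 cases (median 0.16), and reads of their parent genes cannot be told from theirs here.

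Single transcripts that differed from their gene were few. Of the 461 called transcripts, 406 belonged to a gene that was itself called, and no gene had called transcripts in opposite directions. Counts of single transcripts rest on how reads were assigned among overlapping transcripts, which is not stated.

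Whether the transcripts of a gene changed unequally was tested in 5916 genes, and 3 passed (0.0507%), with 19 passing with the block (0.321%). Dclk1, a doublecortin-like kinase that binds microtubules, had the clearest difference. Its transcript ENSMUST00000167204 rose from 144 to 231 CPM on average, while ENSMUST00000070418 made up 6.06, 6.41 and 5.48% of Dclk1 counts in soma and 2.87, 2.90 and 2.81% in neurites (gene-level adjusted p = 0.00252). In Rps6, the non-coding transcript ENSMUST00000136174 made up 28.3, 29.5 and 39.0% of counts in soma and 11.1, 14.9 and 18.1% in neurites (adjusted p = 0.0238). Eif4a2, named because it was the third to pass, rested on a transcript at 2.07 CPM in soma and 0.498 CPM in neurites (adjusted p = 0.00455), whose log2 fold change was -2.05 in WT and -0.06 in het. In all 3 genes the neurite shares of the named transcript lay on one side of the soma shares. Without soma replicate 2 none of the 3 passed, with adjusted p-values of 0.103 for Dclk1 and Rps6 and 0.127 for Eif4a2, and Rps6 did not pass without neurite replicate 1 or soma replicate 3 either (0.693 and 0.554). Eif4a2 also did not pass without neurite replicate 3 (0.0686) or soma replicate 3 (0.173).

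Pkm, pyruvate kinase, makes proteins that differ in a single exon. PKM1 is the form of muscle and mature neurons, and PKM2 that of dividing and glial cells. The exons that exclude each other lie on chromosome 9 (GRCm38, plus strand), at chr9:59675029-59675195 in ENSMUST00000163694 (PKM1) and at chr9:59675568-59675734 in ENSMUST00000034834 (PKM2). Each is exon 9 of the 11 of its transcript, is wholly coding and is 167 bases long. They are shown because they set the 2 proteins apart. The transcripts also differ at their ends, with a length of 2041 bases for PKM1 and 2432 bases for PKM2. Which reads set the share of each transcript is not stated. Capitals mark the 64 positions at which the 2 exons differ when set side by side without gaps (61.7% identity).
Pkm ENSMUST00000163694 exon 9: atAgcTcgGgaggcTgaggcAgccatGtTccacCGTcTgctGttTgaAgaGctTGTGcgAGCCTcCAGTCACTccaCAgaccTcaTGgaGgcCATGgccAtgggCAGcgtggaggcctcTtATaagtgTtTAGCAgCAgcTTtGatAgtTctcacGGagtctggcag
Pkm ENSMUST00000034834 exon 9: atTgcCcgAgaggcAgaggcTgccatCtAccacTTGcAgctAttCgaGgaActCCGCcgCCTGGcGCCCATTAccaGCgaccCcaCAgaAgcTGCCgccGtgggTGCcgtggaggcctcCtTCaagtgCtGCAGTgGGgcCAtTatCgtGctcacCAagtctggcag

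The PKM2 transcript made up 14.5, 13.2 and 15.3% of Pkm counts in soma and 30.9, 16.9 and 25.6% in neurites, higher in each of the 3 pairs. The groups did not overlap, and replicate 2 was the lowest in both compartments. The PKM1 transcript fell from 297 to 203 CPM on average (log2 fold change -0.55 ± 0.12, adjusted p = 0.0235), and the PKM2 transcript stood at 49.6 CPM in soma and 64.7 CPM in neurites (0.38 ± 0.17, adjusted p = 0.288). In het the log2 fold changes were -0.37 and 0.41. The test of unequal change gave an adjusted p of 0.0679 without the block and 0.00119 with it. It passed in 1 of the 6 fits with a WT library left out, that without neurite replicate 2 (7.85e-05). Without neurite replicates 1 and 3 it was 1.00 and 0.115, and without soma replicates 1, 2 and 3 it was 0.245, 0.743 and 0.332. The summed level of satellite glia genes was also higher in all neurite libraries. Within each compartment that sum was highest in replicate 2 (4469 CPM in soma and 5084 CPM in neurites), where the PKM2 share was lowest. The part of satellite glia in the PKM2 share was not tested.

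**Figure D4:**
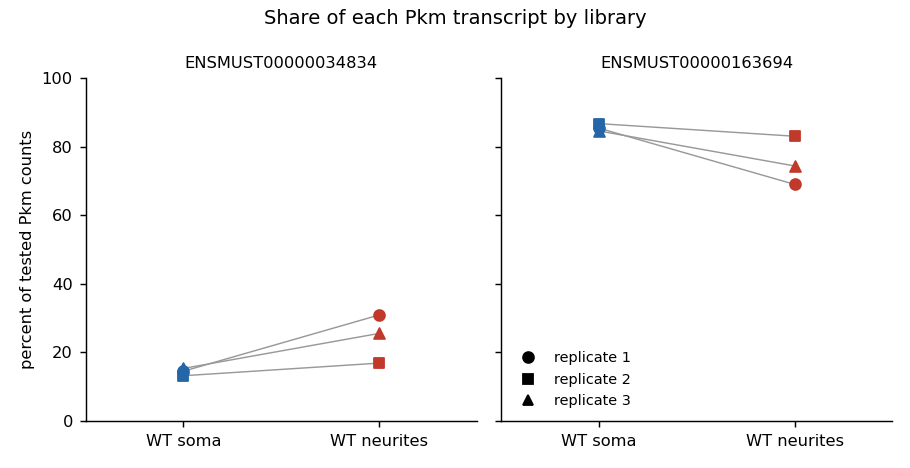
Percent of tested Pkm counts in the PKM2 transcript (left) and the PKM1 transcript (right) in each WT library, with grey lines joining soma and neurites of the same number. The PKM2 share is higher in neurites than in soma in each of the 3 pairs, by the smallest margin in replicate 2.

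Transcripts of the genes that rose were longer and had more exons at the median than those of all genes, a difference that was not tested. Over 12762 genes with a coding transcript, the most abundant one had a median length of 4137 bases for genes that rose, 3176 for those that fell and 2988.5 for all. The median coding length was 1797, 1320 and 1314 bases and the median number of exons 11, 8 and 8. Abundance differed as well, with medians of 91.7, 32.0 and 14.7 CPM, and a gene with more counts is called more readily. Across all genes the rank correlation of coding length with the log2 fold change was 0.11 in WT and -0.03 in het, so its sign differed between the genotypes. These are descriptions across genes, which share libraries.

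A GA-rich stretch in the 3' untranslated region (UTR) is known from RNAs of cell protrusions. The motif GAAGAA was searched in the sense strand of the 3' UTR of 12485 tested genes (the most abundant coding transcript of GENCODE), and TTCTTC, its reverse complement, was counted beside it. Overlapping matches were all counted. Rab13 had 3 matches in a 3' UTR of 389 bases, or 7.71 per kilobase, against 0.502 per kilobase over all genes. A stretch of its 3' UTR with 2 of these matches, from base 205 to 228, is shown because it is the densest of the list, with matches in capitals.
Rab13: ttgagaagaggaaagGAAGAAGAA

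The motif was about as frequent in the genes that rose as in all genes. It occurred 0.544 times per kilobase in 330 genes that rose, 0.623 in 102 that fell and 0.507 in 41 that rose over 2-fold. TTCTTC occurred 0.516 times in those that fell, 0.374 times in those over 2-fold and 0.524 times over all genes. In the last 500 bases of 3' UTRs at least that long, 19.7% of the genes that rose and 19.1% of all genes held GAAGAA. Of the protrusion list, 9 of 14 held it at least once in the whole 3' UTR, against 41.2% of all genes, with longer UTRs in the list (median 1916.5 against 1072 bases). Per kilobase the list held 0.636 GAAGAA (21 sites) and 0.333 TTCTTC (11 sites), against 0.502 and 0.524 over all genes, a difference that was not tested. In the last 500 bases, 0 of the 13 members with a UTR that long held it. Nes, Ccnd1, Kif1c, Mtss1l and Cdc42bpg held none.

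The het cultures gave the same direction for nearly all genes called in WT. Of the genes that rose in WT, 384 of 385 had a log2 fold change above 0 in het, and 109 of 110 that fell had one below 0, against 74.1% of all genes with the same sign in both. In het, 75 of the 385 rose (19.5%) and 11 of the 110 fell (10.0%). The het calls rest on single libraries: against 102 genes called with all libraries, edgeR called 0 without het neurite replicate 1 or het soma replicate 1 or 2 (1663, 1976 and 1525 at an unadjusted p under 0.05), 1 without het soma replicate 3, 24 without het neurite replicate 3 and 191 without het neurite replicate 2. The 75 and 11 genes called in both genotypes make up 86.2% of the 87 genes that rose and 73.3% of the 15 that fell in het with all libraries. Over all genes the log2 fold changes in WT and het had a Pearson correlation of 0.50 and a Spearman correlation of 0.58, which are across genes and not over replicates. The difference between the genotypes, tested as an interaction in edgeR, was called in 0 genes (202 at an unadjusted p under 0.05, smallest adjusted p 1.00), and in 0 under each alternative run. No neurite-to-soma change above is shown to be particular to WT.

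**Figure D5:**
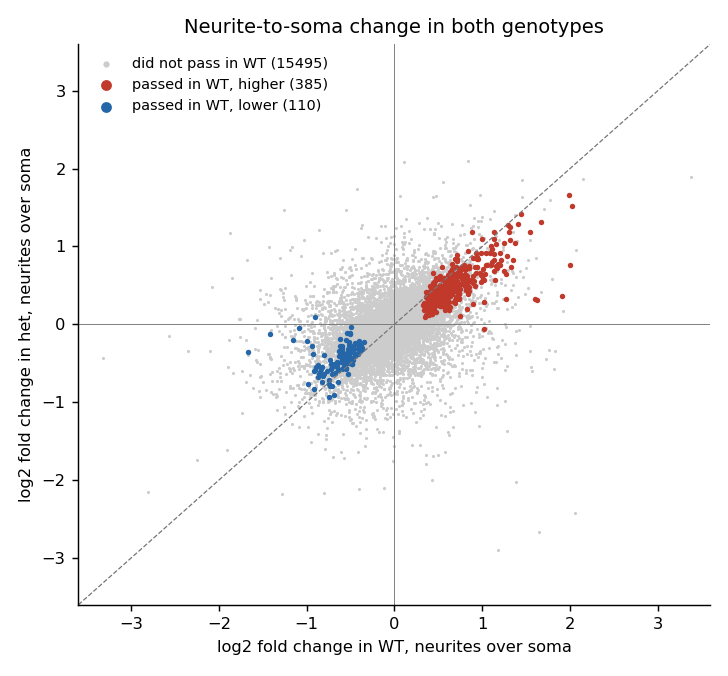
Log2 fold change of neurites over soma in WT (horizontal) and het (vertical) for each tested gene, with genes that passed in WT coloured and the dashed line at equality. Coloured genes lie in the quadrants of equal sign with few exceptions, and 2 genes, neither of them called, lie outside the axes.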

How the data were processed

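Stranded libraries were made from RNA after removal of ribosomal RNA, per the labels' protocols. The submitters' processing notes list CASAVA 1.8.2, edgeR and the mm10 (GRCm38) build. Which aligner and counter were run is not given in the sources used here. Raw counts were deposited by the authors per Ensembl transcript, in a table for each compartment, per the file headers. A transcript is listed in a table only where 3 or more of its 6 libraries reached 5 counts. Between 0.574% and 0.607% of the counts of a WT library had no gene name and were left out, and the 24 other per-sample columns were not used here. Genes found only among the soma rows (1043) or only among the neurite rows (237) were not compared.

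Counts were summed per gene over the 31420 named transcripts in both tables, filtered with filterByExpr, scaled by TMM (factors from 0.946 to 1.04 in WT) and fitted in edgeR 4.0.16 (R 4.3.3), as a quasi-likelihood model with robust spread over all 12 libraries. The spread had 8 residual degrees of freedom. The SE is the log2 fold change divided by the root of the F statistic, and all tests were 2-sided. Unequal change of transcripts was tested with diffSpliceDGE (Simes p-values). The fits were tested on simulated data. Transcript classes, lengths and positions came from GENCODE M21, in which 99.04% of the shared transcripts were found. Alternatives used DESeq2 1.42.0 and limma 3.58.1, other filters, the 6 WT libraries alone, and each replicate left out.

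The labels state 1 mouse per culture. They do not say that libraries of the same number share a culture, but same-numbered WT soma and neurite libraries deviated together, with correlations of 0.41, 0.50 and 0.33 over 13432 genes, and other WT pairs ran from -0.36 to -0.07. In het they were 0.23, 0.39 and -0.04. The main fit had no block. The gene groups (61 lists) and the rule for named genes were chosen with earlier results of these data known. The rule names Ncl, Kpnb1 and Mtor, the 15 highest and 15 lowest fold changes and the 6 most abundant in each direction among called genes without overlap and with at least 10 CPM, and up to 5 called members of a list (2 by the smallest p where none passed). Some genes that it names are not reported here. Other genes, such as Actb, Gap43, Mki67, Malat1, Scn10a, Cdk4 and Net1, were named for their known roles after their values were seen.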

Additional observations from a re-analysis of the deposited data

How the results depend on the processing

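Of 113 named genes that passed in WT, 110 passed in DESeq2, 109 in limma voom, 113 with the replicate block, 26 with any 1 WT library left out and 17 in the 6 WT libraries alone, and no named gene that was called changed sign under an alternative. The 495 called genes became 1146 in DESeq2 (779 higher and 367 lower), 40 in the 6 WT libraries alone (38 and 2) and 93 to 1081 with 1 library left out, the highest count without neurite replicate 2. With a filter of at least 1 CPM there were 557, and the other alternatives gave 481 to 555. Of the called genes, 77.8% were higher, against 68.0% in DESeq2 and 62.9% with the block. The 461 called transcripts became 1009 in DESeq2, 112 in WT alone and 111 to 979 with 1 library left out. The 102 genes called in het became 0 to 191. The 3 genes with unequal change became 13 by the gene-level F test, 7 with coding transcripts alone and 0 to 18 with 1 library left out. The replicate block gave 1489 genes and 1437 transcripts in WT, 671 genes in het and 19 genes with unequal change, and left the interaction at 0. The causes of these shifts were not tested. Fits with 1 library left out of a group assume that its remaining libraries vary like the other groups. With 3 libraries against 3, calls rest on the spread shared across groups, since an exact permutation test of one gene could not go below p = 0.1.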
